A study of Mus musculus with 28 samples.

Results

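Spermatocytes from mice lacking Ddx25 were compared with spermatocytes from wild-type (WT) mice, across all genes measured. The comparison used the arrays titled for spermatocytes of either genotype, which were 8 of the 28 arrays in the series. The 4 knockout (KO) arrays held RNA of GRTH-/- cells and the 4 WT arrays RNA of GRTH wild-type cells, where GRTH is the gonadotropin-regulated testicular RNA helicase encoded by Ddx25. Both groups came from adult C57BL/6 male mice. Spermatocytes were purified by centrifugal elutriation, which sorts testis cells by size, and 1 μg of RNA extracted with Trizol was labelled with biotin in a single step. The other 20 arrays of the series held round spermatids, Leydig cells, polysome RNA and immunoprecipitated RNA, and the series asks which testis messages depend on the helicase.

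Spermatocytes are the germ cells that pair, recombine and divide their chromosomes in meiosis. Much of the RNA for later sperm formation is transcribed in spermatocytes and in the round spermatids that follow, stored in ribonucleoprotein particles, and translated only in elongating spermatids, when histones give way to transition proteins and protamines. DDX25 is a DEAD-box RNA helicase of germ cells and Leydig cells that shuttles between nucleus and cytoplasm, carries messages out of the nucleus and associates with polysomes and the chromatoid body. Male mice without it are known to be sterile, with spermatids that stop before they elongate.

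Within each genotype, array 1 closely matched array 2, and array 3 closely matched array 4. The SD over genes of the log2 difference between 2 arrays lay between 0.116 and 0.132 within these 4 pairs, between 0.184 and 0.216 for the 8 combinations across pairs of one genotype, and between 0.312 and 0.358 for the 16 combinations of a KO with a WT array. Each pair was therefore averaged and counted as 1 value, which gave 2 KO and 2 WT values per gene. Free-text descriptions of the WT samples split at the same place, since samples 1 and 2 are worded differently from 3 and 4. The labels do not say that samples came from separate animals, so p-values cover only how far these samples differ, a spread that could be technical. On every array the deposited intensities had a trimmed mean of 500, and the median signal was 51.7 to 63.2 on KO arrays and 52.9 to 56.9 on WT arrays. The ratio of 3′ to 5′ actin probe sets, a sign of RNA integrity, was 1.57 to 1.82 on KO arrays and 1.48 to 1.61 on WT arrays, and its part in the results was not tested.

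The label was checked against markers of germ cell stages. Pachytene spermatocyte markers were bright in both genotypes, with summed signals of 16 genes of 133300 to 160800 on KO arrays and 130700 to 160600 on WT arrays. Piwil1, a PIWI protein of meiotic cells, averaged 8348 in KO and 7068 in WT spermatocytes, against 523 in WT round spermatids. Sycp3, of the synaptonemal complex that holds paired chromosomes, averaged 9820 in KO and 9142 in WT spermatocytes, against 2627 in WT round spermatids. These markers were not specific to the fraction: of the 16, 8 were brighter in WT spermatocytes than in WT round spermatids and 8 were dimmer, such as Ldhc, a lactate dehydrogenase of germ cells, at 25190 in WT spermatocytes and 40240 in WT round spermatids. The fractions also held messages of later cells. Prm1, a protamine, averaged 12820 in KO and 19330 in WT spermatocytes, against 42840 in WT round spermatids. Summed signals of 25 elongating spermatid markers were 121000 to 130800 on KO arrays and 200800 to 237300 on WT arrays, and those of 16 round spermatid markers were 66290 to 70310 on KO arrays and 78820 to 82650 on WT arrays. In bulk RNA such as this, fewer cells of a type and less RNA per cell cannot be told apart.

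Ddx25 itself was read at 3000, 2990, 3278 and 3048 on the KO arrays, against 16790, 15360, 14470 and 13000 on the WT arrays. All KO arrays lay below all WT arrays, and the gene was 4.8-fold lower (log2 change -2.26 ± 0.10 SE, limma adjusted p = 0.000693). Its probe set still gave a signal in KO cells, and whether it lies within the deleted part of the gene is unstated in the sources used here. Of the 5 tested genes nearest on either side of Ddx25 on chromosome 9, only Acrv1, an acrosomal vesicle protein, passed the test (-0.38 ± 0.08, adjusted p = 0.031). Among the 25 nearest on either side, 6 were higher and 5 lower, or 22% of 50, against 13.5% of all genes tested, and only Tmem225, a testis membrane protein, changed by at least 2-fold (-1.68 ± 0.09, adjusted p = 0.000693).

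Across the 9097 genes bright enough to test, 458 were higher in KO spermatocytes (5.03%) and 772 were lower (8.49%), 13.5% in all, at an adjusted p below 0.05. Most changes were small: the median log2 change was 0.49 among genes that rose and -0.56 among genes that fell, and that of all genes tested was 0.03. At least 2-fold changes numbered 19 rises (0.209% of genes tested) and 79 falls (0.868%). The largest rises were in genes of varied function. Vnn1 and the targeted Ddx25 fell most. Of the other falls among the 10 largest, all but Gm19589 were brighter in WT round spermatids than in WT spermatocytes. All 1230 called genes changed in the same direction in arrays 1 and 2 and in arrays 3 and 4 taken alone. The calls were made from these same pair values, so that agreement was largely set by the selection. Of the 98 that changed at least 2-fold, 78 did so in both sets. With the pair number as a block, 832 genes were higher and 1031 lower. With no filter on dim genes, none of 18193 passed in limma, with 2853 at an unadjusted p below 0.05.

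**Figure D1:**
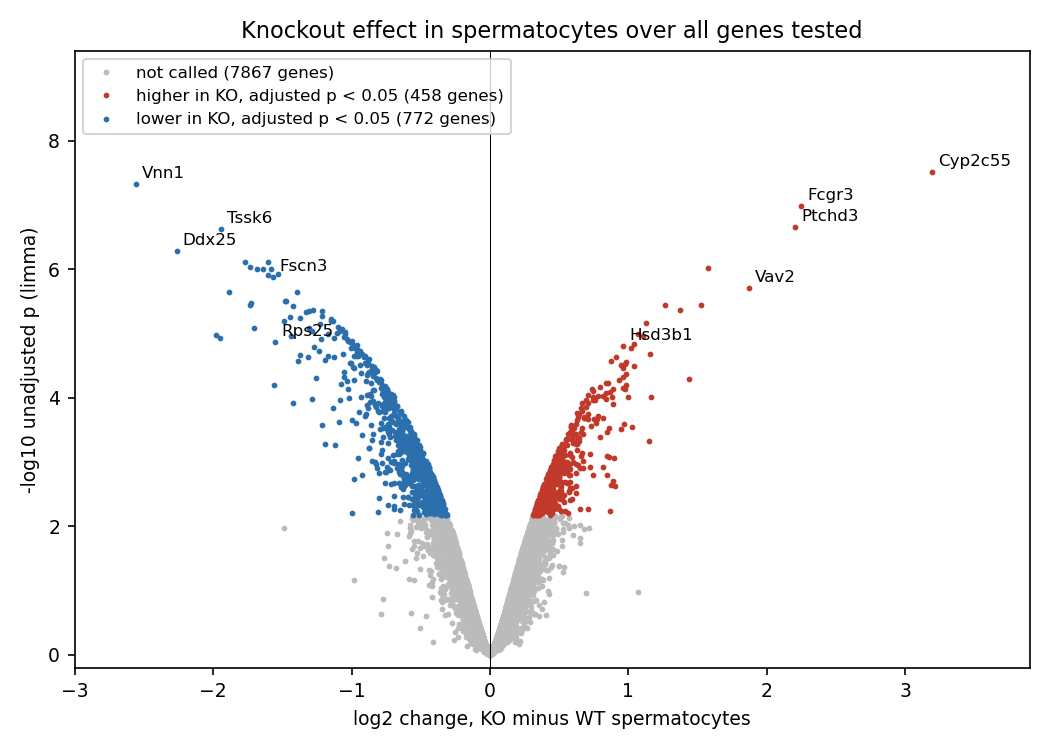
Volcano plot of the 9097 genes tested, with the log2 change of KO minus WT spermatocytes on the x axis and the negative log10 of the unadjusted limma p on the y axis. Called genes are coloured, 458 higher and 772 lower, and the extremes are Cyp2c55 at 3.19 and Vnn1 at -2.56.

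Promoter sequences of 4 genes are shown as examples of start regions: Cyp2c55 and Ptchd3 are among the largest rises, and Tssk6 (-1.94) and Spata18 (-0.99) are elongating spermatid genes that fell. Tssk6 and Spata18 were picked because they hold the motif marked below, as 2 of the 16 fallen elongating spermatid markers with 1 promoter on record do, so the contrast with the genes that rose was set by the choice. Each run is 300 bases, 250 before and 50 after the start of the gene, from RefSeq on GRCm38.p6, 5′ to 3′ on the strand of the gene, and all 4 genes lie on the plus strand. Capitals mark TGACG, the core of the cyclic AMP response element that the spermatid activator CREM binds, on either strand. The windows are chr19:39006769-39007068 for Cyp2c55, chr11:121829968-121830267 for Ptchd3, chr8:69901934-69902233 for Tssk6 and chr5:73651130-73651429 for Spata18.
Cyp2c55: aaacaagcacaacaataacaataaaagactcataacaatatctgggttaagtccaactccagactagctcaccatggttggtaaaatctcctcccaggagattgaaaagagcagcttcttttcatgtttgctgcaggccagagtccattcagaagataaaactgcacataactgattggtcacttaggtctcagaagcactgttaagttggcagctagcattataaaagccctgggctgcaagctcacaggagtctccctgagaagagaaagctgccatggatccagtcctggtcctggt
Ptchd3: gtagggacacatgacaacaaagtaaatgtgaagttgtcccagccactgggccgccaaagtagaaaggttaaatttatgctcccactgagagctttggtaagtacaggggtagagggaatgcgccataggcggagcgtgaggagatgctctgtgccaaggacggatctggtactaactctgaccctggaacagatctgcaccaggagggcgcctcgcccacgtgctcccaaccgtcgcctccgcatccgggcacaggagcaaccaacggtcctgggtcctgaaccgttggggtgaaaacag
Tssk6: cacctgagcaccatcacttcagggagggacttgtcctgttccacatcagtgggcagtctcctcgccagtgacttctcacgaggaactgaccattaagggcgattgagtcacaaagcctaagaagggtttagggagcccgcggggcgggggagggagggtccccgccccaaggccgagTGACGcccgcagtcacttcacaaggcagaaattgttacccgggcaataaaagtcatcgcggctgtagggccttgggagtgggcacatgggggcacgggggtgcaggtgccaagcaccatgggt
Spata18: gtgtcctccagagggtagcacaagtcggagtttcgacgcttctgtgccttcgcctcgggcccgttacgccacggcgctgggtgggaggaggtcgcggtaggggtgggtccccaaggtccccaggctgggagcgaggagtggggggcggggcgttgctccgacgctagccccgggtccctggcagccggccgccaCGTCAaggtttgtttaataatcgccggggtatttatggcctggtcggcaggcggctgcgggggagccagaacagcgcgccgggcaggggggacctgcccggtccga

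The core TGACG stood once in the Tssk6 window, 73 bases before the gene start, and once in the Spata18 window, 56 bases before it, there on the opposite strand. It was not in the windows of Cyp2c55 or Ptchd3. The full palindrome TGACGTCA, which contains the core on both strands, was in 4.03% of the 621 genes with a promoter on record that fell, 2.68% of 373 that rose and 4.08% of 7495 tested. The core was in 28.3% of genes that fell, 29.2% of those that rose and 37.1% of those tested, and over all 27025 genes with a promoter in the table the shares were 2.03% for the palindrome and 23% for the core. Of 22 tested elongating spermatid markers with a promoter, 3 held the core and 0 the palindrome. These matches describe letters in these windows only.

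Among the genes that rose, Cyp2c55, a cytochrome P450 enzyme, was read at 585.8, 610.3, 520.8 and 544.1 in KO spermatocytes, against 47.4, 45.33, 43.09 and 54.47 in WT spermatocytes. It rose by 3.19 ± 0.09 on the log2(signal + 16) scale (adjusted p = 0.000217). The WT signals lay near the array median and below the filter of 149.7, so the gene entered the test through its KO arrays and the size of its change has no firm base. Of the 19 genes at least 2-fold higher 4 had a mean WT signal below the filter, and of the 79 at least 2-fold lower 12 had a mean KO signal below it. Fcgr3, an immunoglobulin G receptor usually of macrophages and other leukocytes, had signals of 6053, 5807, 6142 and 5874 in KO, against 1211, 1234, 1247 and 1295 in WT cells (2.25 ± 0.08, adjusted p = 0.000319). Of the 21 macrophage markers on the arrays 19 were below the signal filter, and these dim markers went both ways. C1qa, Csf1r and Ptprc averaged 3.7, 66.8 and 25.7 in KO and 4.11, 91.8 and 26.1 in WT spermatocytes. Cd163, Cd74 and Laptm5 averaged 20.9, 78.9 and 109.9 in KO and 3.01, 41.6 and 84.85 in WT spermatocytes. Aif1, the other macrophage marker tested, had 1992, 2000, 1880 and 1901 in KO, against 3159, 3021, 2896 and 2954 in WT cells (-0.63 ± 0.08, adjusted p = 0.0083). Summed over the list, macrophage markers gave 8605 to 9013 on KO arrays and 4964 to 5226 on WT arrays. Without Fcgr3 they gave 2730 to 2975 on KO arrays and 3718 to 4014 on WT arrays. Most of that remainder was Aif1, which averaged 1943 in KO and 3007 in WT spermatocytes, and 17790 in WT round spermatids.

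Ptchd3, a patched-domain membrane protein of male germ cells, was read at 11790, 10870, 10790 and 10000 in KO, against 2418, 2389, 2346 and 2225 in WT spermatocytes, 4.6-fold higher (2.20 ± 0.09, adjusted p = 0.000435). Vav2, a guanine nucleotide exchange factor, had 959.1, 991.4, 1098 and 1122 in KO, against 241.6, 269.3, 287 and 295.7 in WT cells (1.87 ± 0.11, adjusted p = 0.00105). In both genes the lowest KO array was several times the highest WT array. Speer4cos rose by 1.57 ± 0.08, Clec4g, a C-type lectin, by 1.52 ± 0.10, and Neo1, the netrin receptor neogenin, by 1.44 ± 0.14 on the log2 scale. Rab4a, a small GTPase of endosome recycling, followed at 1.37 ± 0.09 and 4933404O12Rik at 1.26 ± 0.08. Adjusted p for these 5 genes lay between 0.000693 and 0.00346. Clec4g depended on the probe set: another of its probe sets fell by 0.83 (adjusted p = 0.0425), and the mean over its probe sets was 0.34 (adjusted p = 0.055).

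Edem1, which sends misfolded glycoproteins from the endoplasmic reticulum to degradation, was read at 511, 522.7, 646.7 and 613.8 in KO, against 215.5, 237.7, 244.3 and 293.5 in WT spermatocytes (1.16 ± 0.13, adjusted p = 0.00465). The arrays did not overlap, although the mean over the probe sets of Edem1 gave 0.60 and an adjusted p of 0.145. Hyou1, a chaperone of the same compartment, rose by 0.74 ± 0.14 (adjusted p = 0.0209). Bdh1, an enzyme of ketone body oxidation, had 678.9, 689, 624.9 and 625.2 in KO, against 268.8, 263.7, 301.3 and 303.7 in WT cells (1.16 ± 0.10, adjusted p = 0.00234).

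**Figure D2:**
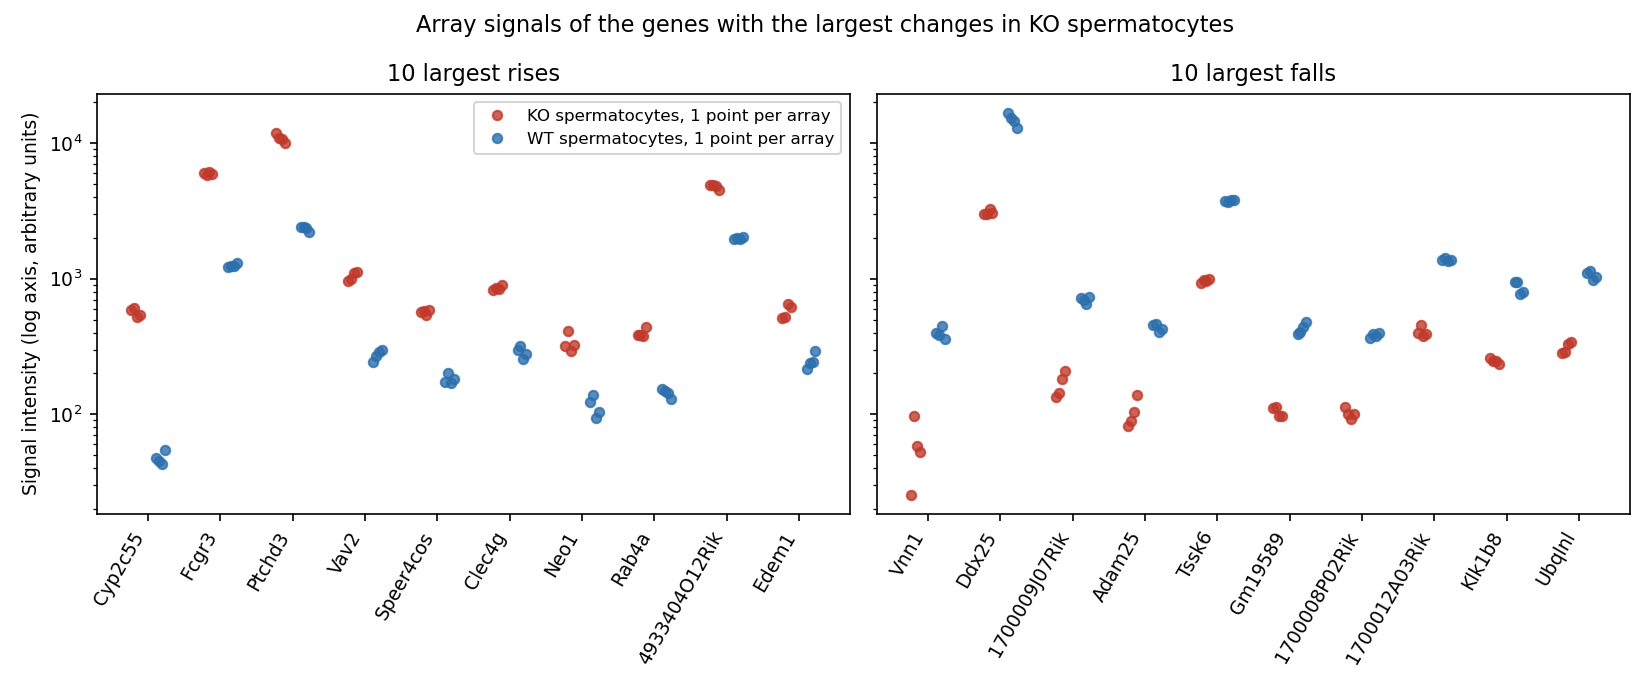
Signal intensity on a log axis, 1 point per array, for the 10 largest rises (left panel) and the 10 largest falls (right panel), with the 4 KO arrays left of the 4 WT arrays for each gene. The arrays of the genotypes do not overlap for any of these 20 genes, as for 38.3% of all genes tested, and those of Vnn1 in KO cells spread from 25.6 to 97.8.

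The largest fall was that of Vnn1, a pantetheinase, at 25.55, 97.8, 58.22 and 52.34 in KO, against 400.5, 384.6, 448.6 and 356.5 in WT spermatocytes (-2.56 ± 0.08, adjusted p = 0.000217). Its KO signals lay near the array median and below the filter of 149.7. Vnn1 thus entered the test through its WT arrays, and the size and rank of its fall have no firm base. KO arrays 1 and 2 of Vnn1 were the lowest and the highest of their genotype, a spread that averaging the pair hides from the test. Tssk6, a kinase of late spermatids, had 933.9, 980.1, 961.8 and 989.4 in KO, against 3759, 3669, 3816 and 3811 in WT cells (-1.94 ± 0.08, adjusted p = 0.000435). Adam25, a membrane metalloproteinase of the testis, had 81.99, 88.63, 104 and 138 in KO, against 458.5, 463.6, 402.6 and 428.6 in WT cells (-1.95 ± 0.15, adjusted p = 0.00187). All KO signals of Adam25 were below the filter of 149.7. It too entered the test through its WT arrays, and the size of its fall has no firm base. Of 17 tested Adam genes 4 fell (23.5%, against 8.49% of all genes) and 0 rose. Beside Adam25 these were Adam34 (-0.59), Adam26a (-0.55) and Adam24 (-0.50), and all 4 are on chromosome 8.

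Klk1b8, a glandular kallikrein, was read at 258.3, 248.3, 248 and 235 in KO, against 940.6, 946.7, 772.7 and 795.1 in WT spermatocytes (-1.73 ± 0.11, adjusted p = 0.0013). Ubqlnl, a ubiquilin-like protein, had 284.9, 289.6, 330.2 and 339.1 in KO, against 1105, 1141, 974.7 and 1034 in WT cells (-1.72 ± 0.11, adjusted p = 0.0013). The remaining falls among the 10 largest were transcripts with only systematic names: 1700009J07Rik (-1.98 ± 0.15), Gm19589 (-1.88 ± 0.11), 1700008P02Rik (-1.77 ± 0.09) and 1700012A03Rik (-1.73 ± 0.09). RIKEN-named genes were 486 of those tested, and 32 of them rose (6.58%) and 106 fell (21.8%), against 5.03% and 8.49% of all genes.

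Genes of the meiotic programme showed few calls, where 5.03% of all genes were higher and 8.49% lower. Of 15 tested pachytene markers 0 passed limma's adjusted threshold, with a median of 0.00 and 1 lower under the block, between -0.33 for Mybl1, a transcription factor of pachytene cells, and 0.24 for Piwil1. Sycp3 had 10570, 9795, 9654 and 9260 in KO, against 10370, 9869, 8365 and 7963 in WT spermatocytes, so the genotypes overlapped (0.11 ± 0.12, adjusted p = 0.604). Sycp1, of the same complex, was 3681, 3608, 3383 and 3465 in KO, against 4344, 4411, 4007 and 4099 in WT cells (-0.25 ± 0.09, adjusted p = 0.116). The genotypes of Sycp1 did not overlap, but 38.3% of all genes tested also had no overlap between 4 and 4 arrays, and 58.6% none between the pair values.

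Among 18 genes of synapsis and meiotic cohesin 1 fell, Syce2, a central element protein of the synaptonemal complex (3217 to 3560 in KO and 4245 to 4440 in WT spermatocytes, -0.36 ± 0.08, adjusted p = 0.0431), and with the pair block 1 rose and 3 fell. Among 18 genes of recombination 1 fell, Tex15, needed for repair of meiotic breaks (1238 to 1360 in KO and 1626 to 1815 in WT, -0.41 ± 0.09, adjusted p = 0.0314), and with the block 1 rose and 2 fell. Of 24 kinases and cyclins of the meiotic divisions 0 passed, with 1 higher under the block, and their changes ran from -0.23 to 0.35. The 8 tested spermatogonia markers also had 0 calls, with 1 higher under the block.

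Messages of spermatids were lower in KO spermatocytes. Of 25 markers of elongating spermatids, all of which were bright enough to test, 22 were lower (88%, against 8.49% of all genes tested) and 0 higher, with a median of -0.96 against 0.03 for all genes. The count was 24 with the pair block and 21 to 23 when a pair was left out. Fscn3, a testis fascin that bundles actin, had 482.7, 544.8, 453.8 and 501.7 in KO, against 1443, 1493, 1508 and 1533 in WT spermatocytes (-1.56 ± 0.08, adjusted p = 0.000747). Cabs1, which binds calcium in the sperm tail, had 1404, 1466, 1471 and 1546 in KO, against 4001, 3933, 3804 and 3825 in WT cells (-1.39 ± 0.08, adjusted p = 0.00107), and Spata3 fell by 1.31 (adjusted p = 0.00135). Every KO array of these genes was below every WT array. How many spermatids each fraction held was not measured, and their part in these falls was not tested.

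Genes that package sperm DNA were described after their values had been seen. Tnp2, a transition protein, had 8684, 8054, 8221 and 7468 in KO, against 16770, 15740, 14060 and 13730 in WT spermatocytes (-0.89 ± 0.10, adjusted p = 0.00537), and Tnp1 fell by 0.65 ± 0.12 (adjusted p = 0.0196). Prm2, a protamine, had 10610, 9914, 10160 and 9516 in KO, against 22270, 19660, 19470 and 18080 in WT cells (-0.98 ± 0.09, adjusted p = 0.0028). Prm1 was -0.58 ± 0.16 and did not pass (adjusted p = 0.0729), as did neither Akap3, of the fibrous sheath (-0.27), nor Tsga8 (-0.25). With the pair block Prm1 and Akap3 passed (adjusted p = 0.0224 and 0.0488). Smcp, of the mitochondrial sheath, fell by 0.88 ± 0.08 (adjusted p = 0.00298), and Hils1, a spermatid linker histone, by 0.50 ± 0.09 (adjusted p = 0.0183). Oaz3, the antizyme of spermatids, fell by 1.19 ± 0.11 (adjusted p = 0.00251) on its brightest probe set, and by 0.31 on the mean over its probe sets (adjusted p = 0.209).

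Of 16 round spermatid markers 9 were lower (56.2%, against 8.49% of all genes) and 0 higher, with a median of -0.36. The count was 10 with the pair block, 4 without KO arrays 1 and 2, 5 without KO arrays 3 and 4, 6 without WT arrays 1 and 2 and 4 without WT arrays 3 and 4. Ccdc54 fell most, with 1095, 1102, 1055 and 1106 in KO, against 2514, 2634, 2202 and 2252 in WT spermatocytes (-1.12 ± 0.10, adjusted p = 0.00234). Cby2 (-0.75 ± 0.09) and the kinase Tssk2 (-0.71 ± 0.09) followed, with adjusted p of 0.005 and 0.00682, and Tex36 was at -0.52 ± 0.09 (adjusted p = 0.0163). Falls were thus deeper among elongating than among round spermatid markers by the medians, a difference that was not tested. Spata16 and Dpy19l2, of the round list, were dimmer in WT round spermatids (3566 and 6233) than in WT spermatocytes (5244 and 7153). The other round markers and all elongating markers were brighter in WT round spermatids, so the lists are not matched.

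**Figure D3:**
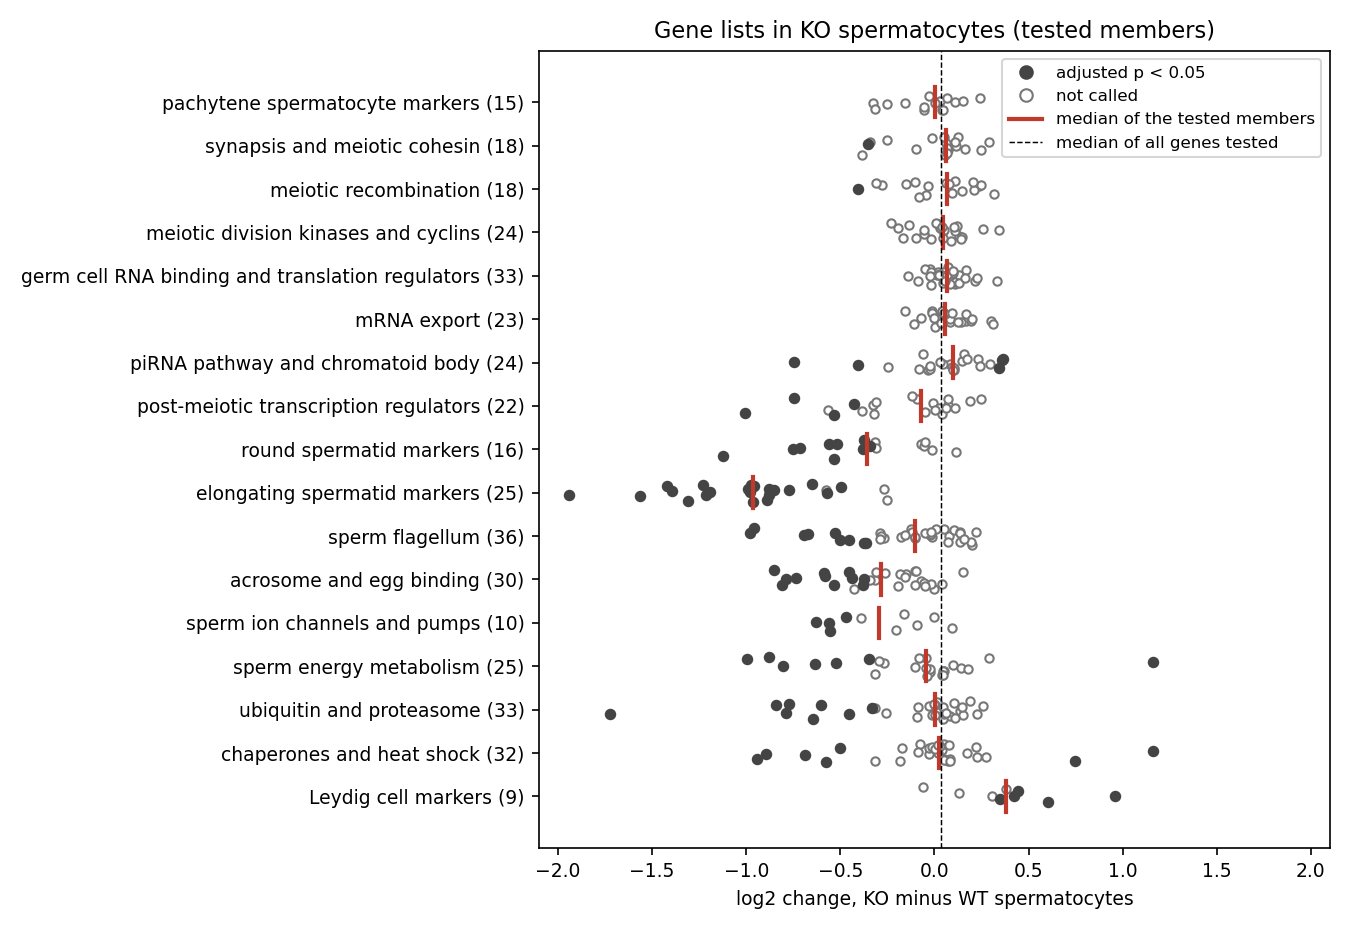
Log2 change of KO minus WT spermatocytes for each tested member of 17 gene lists, 1 point per gene, filled where the adjusted p is below 0.05, with the list median as a red bar and the median of all genes tested as a dashed line. Elongating spermatid markers centre on -0.96 and pachytene markers on 0.00.

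The share of genes that fell is given for each part of the sperm cell, and differences between these shares were not tested. Of 36 flagellum genes 9 were lower (25%, against 8.49% of all genes) and 0 higher (median -0.10), with 13 lower under the pair block and 4 or 5 when any 1 pair was left out. Akap4 and Odf1, of the outer dense fibres, led them, and Odf1 had 6621, 6364, 6806 and 6542 in KO, against 13910, 12520, 13010 and 11940 in WT spermatocytes (-0.96 ± 0.08, adjusted p = 0.00233). Akap4, the main scaffold of the fibrous sheath, had 4273, 4282, 4461 and 4400 in KO, against 9229, 8696, 8411 and 8169 in WT cells (-0.98 ± 0.08, adjusted p = 0.00234). Ropn1, a sheath protein, fell by 0.67 and Spag6, of the axoneme's central pair, by 0.53 (adjusted p = 0.00691 and 0.0214). The other 27 flagellum genes did not pass.

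Of 30 genes of the acrosome and egg binding 11 were lower (36.7%, against 8.49% of all genes) and 0 higher (median -0.29). The pair block gave 14, and leaving out a pair gave 5 without KO arrays 1 and 2, 7 without KO arrays 3 and 4, 8 without WT arrays 1 and 2 and 6 without WT arrays 3 and 4. Capza3, an actin-capping subunit of spermatids, had 2591, 2548, 2672 and 2644 in KO, against 4903, 4784, 4738 and 4522 in WT spermatocytes (-0.85 ± 0.08, adjusted p = 0.00292). Spam1, the sperm hyaluronidase, fell by 0.79 ± 0.08, Izumo3 by 0.81 ± 0.09, and Spaca6, needed for fusion with the egg, by 0.74 ± 0.10 (adjusted p of 0.00414 to 0.00805). Of 10 sperm ion channels and pumps 4 were lower (40%), but 0 without KO arrays 1 and 2 and 2 without WT arrays 3 and 4: Catsper1 (-0.63) and Catsper3 (-0.56) of the sperm calcium channel, the potassium channel gene Kcnu1 (-0.56) and the sodium pump gene Atp1a4 (-0.47), with adjusted p between 0.011 and 0.0329. Those 4 lay between 978 and 1227 on the KO arrays and between 1400 and 1780 on the WT arrays.

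Of 25 energy metabolism genes 6 fell (24%, against 8.49% of all genes) and 1, Bdh1, rose. With the pair block 9 fell and 2 rose, and 4 fell without KO arrays 1 and 2. Gapdhs, the glycolytic enzyme of sperm, had 4053, 3993, 4270 and 4142 in KO, against 7903, 7336, 7802 and 7345 in WT spermatocytes (-0.88 ± 0.08, adjusted p = 0.00258). Acsbg2, an acyl-CoA synthetase, fell by 0.99 ± 0.13, and Akap1, a kinase anchor on mitochondria, by 0.80 ± 0.10 (adjusted p = 0.00743 and 0.00612). Of 33 ubiquitin and proteasome genes 8 fell (24.2%, against 8.49% of all genes, and 9 with the block) and 0 rose. Among them were Ubqlnl, Asb17 (-0.84 ± 0.08), the ubiquitin ligase Rnf133 (-0.79 ± 0.08) and Asb9 (-0.65 ± 0.09), with adjusted p of 0.00325, 0.00349 and 0.00835 for the last 3.

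Of 32 chaperones, Edem1 and Hyou1 rose (6.25%, against 5.03% of all genes) and 5 fell (15.6%, against 8.49%). With the pair block 3 rose and 6 fell, and without KO arrays 1 and 2, 1 rose and 3 fell. Hspa1l, a heat shock protein of spermatids, had 1063, 1126, 1051 and 1081 in KO, against 1997, 1999, 2189 and 2171 in WT spermatocytes (-0.94 ± 0.09, adjusted p = 0.00269). The co-chaperones Dnajb8 (-0.89 ± 0.11) and Dnajb7 (-0.69 ± 0.08) fell as well (adjusted p = 0.00647 and 0.00624). The 2 that rose act in the endoplasmic reticulum.

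Regulators of the spermatid programme were called in part. Of 22 post-meiotic transcription regulators 4 fell (18.2%, against 8.49% of all genes) and 0 rose, and 7 fell with the pair block. Camk4, a calcium-dependent kinase of spermatids, had 155.2, 198.1, 186.7 and 181.6 in KO, against 381, 382.3, 356.9 and 391.3 in WT spermatocytes (-1.01 ± 0.08, adjusted p = 0.00195). Kif17, a kinesin that in mouse spermatids moves the CREM partner encoded by Fhl5, had 1092, 1184, 1078 and 1121 in KO, against 1802, 1930, 1883 and 1930 in WT cells (-0.75 ± 0.08, adjusted p = 0.00414). Fhl5 fell by 0.43 ± 0.10 (adjusted p = 0.0403), and Nr6a1, an orphan nuclear receptor of germ cells, by 0.54 ± 0.10 (adjusted p = 0.022). The other 18 regulators did not pass.

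RNA-handling genes were little changed by count. Of 43 DEAD and DEAH box helicases 2 were lower (4.65%, against 8.49% of all genes), and 2 rose with the pair block. The lower ones were Ddx25 and Ddx6, a helicase of RNA storage granules (1614 to 1871 in KO and 2153 to 2500 in WT spermatocytes, -0.41 ± 0.10, adjusted p = 0.0481). The mean over the probe sets of Ddx6 was -0.08 (adjusted p = 0.557). Of 23 genes of mRNA export 0 passed, with 1 higher under the block, between -0.16 and 0.31. Of 33 germ cell RNA-binding and translation regulators 0 passed, between -0.14 and 0.33.

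In the piRNA pathway and chromatoid body list, 3 of 24 genes were higher (12.5%, against 5.03% of all genes) and 2 lower (8.33%, near the 8.49% of all genes), the lower ones being Kif17 and Ddx6. Piwil2, a PIWI protein that binds piRNAs, had 5207, 5062, 5507 and 5335 in KO, against 4064, 4027, 4319 and 4249 in WT spermatocytes (0.34 ± 0.08, adjusted p = 0.0478). Exd1 (0.37 ± 0.09, adjusted p = 0.0477) and Adad2 (0.36 ± 0.08, adjusted p = 0.0391) rose by a similar amount. All 3 stood close to the threshold, and centring each array on its median, or leaving out either KO pair or WT arrays 3 and 4, left 0 higher in that list.

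Of 26 genes of apoptosis and NF-kappaB 1 was higher (3.85%) and 2 lower (7.69%), shares near those of all genes, and 4 were higher with the pair block. Bcl2l14, a BCL2 family member of the testis, had 2132, 2135, 2178 and 2282 in KO, against 3961, 3986, 4177 and 4079 in WT spermatocytes (-0.89 ± 0.08, adjusted p = 0.00268). Birc2, an inhibitor of apoptosis, rose by 0.41 ± 0.08 (adjusted p = 0.0231), and Nfkbib, an inhibitor of NF-kappaB, fell by 0.32 ± 0.08 (adjusted p = 0.0478) but was 0.06 on the mean over its probe sets. Among 11 immediate early genes Fos (0.62 ± 0.11, adjusted p = 0.0202) and Egr1 (0.49 ± 0.08, adjusted p = 0.0163) rose and Jund fell (-0.69 ± 0.08, adjusted p = 0.00518), and 5 were higher with the block, against 0 without KO arrays 3 and 4. Jund read -0.38 on the mean over its probe sets (adjusted p = 0.274). Of the 11 immediate early genes 18.2% were thus higher and 9.09% lower, against 5.03% and 8.49% of all genes.

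Ribosomal protein genes gave 1 rise and 1 fall among 43 tested (2.33% each, against 5.03% and 8.49% of all genes, median 0.06). Rps25 had 646.2, 612.5, 498.9 and 494.1 in KO, against 1729, 1645, 1671 and 1648 in WT spermatocytes, a 2.94-fold fall (-1.55 ± 0.12, adjusted p = 0.00195). Rps4x rose by 0.34 ± 0.08 (adjusted p = 0.0383), and by 0.11 on the mean over its probe sets. Genes of this family have many near-identical copies in the genome, which probe sets may not tell apart.

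X-linked genes, which are silenced as a chromosome in pachytene spermatocytes, were 143 of those tested. Of them 17 were higher and 23 lower, or 28% called, against 13.5% of all genes. With the pair block 23 were higher and 35 lower, and without KO arrays 1 and 2 the counts were 10 and 11. Leaving out WT arrays 3 and 4 gave 16 higher and 15 lower. Rnf138rt1, a testis ring-finger gene, had 706.6, 731.9, 726.5 and 773.4 in KO, against 314.6, 349.1, 308 and 340.3 in WT spermatocytes (1.13 ± 0.08, adjusted p = 0.00159). Asb12 had 326.9, 364.9, 315.3 and 309.5 in KO, against 145.1, 164.7, 159.2 and 163.2 in WT cells (0.99 ± 0.09, adjusted p = 0.00257). Psmd10, an assembly chaperone of the proteasome, had 179.2, 204.8, 201.9 and 212.1 in KO, against 437.5, 466.1, 409.7 and 416.8 in WT cells (-1.06 ± 0.09, adjusted p = 0.00233). Akap4, described with the flagellum, was the other of the 4 X-linked genes of smallest adjusted p. On chromosome 9, which holds Ddx25, 16.8% of 536 genes were called. The other chromosomes apart from X and Y lay between 9.75% (chromosome 7) and 18% (chromosome 6). On chromosome 9, 11 genes were called and changed at least 2-fold, against 98 of all 9097 genes tested.

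Markers of somatic testis cells were present at lower levels and moved as well. Of 9 tested Leydig cell markers 5 were higher (55.6%, against 5.03% of all genes) and 0 lower (median 0.38). The count was 7 with the pair block, 2 without either KO pair, 3 without either WT pair, 2 on the mean of probe sets and 2 in a fit with round spermatids. Their summed signal was 18680 to 19430 on KO arrays and 14760 to 15610 on WT arrays. Hsd3b1, a steroid dehydrogenase, had 1013, 1136, 1070 and 1138 in KO, against 528, 575.8, 526.4 and 580.2 in WT spermatocytes (0.96 ± 0.08, adjusted p = 0.0021). Cyp11a1, which cuts the cholesterol side chain, had 964.4, 1026, 968.8 and 926.5 in KO, against 629.6, 667.2, 592 and 645 in WT cells (0.60 ± 0.08, adjusted p = 0.00858), and 0.18 on the mean over its probe sets (adjusted p = 0.468). Fabp3, a fatty acid carrier (0.44 ± 0.08), and Vcam1, an adhesion molecule (0.43 ± 0.08), rose with adjusted p of 0.0226 and 0.0255.

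Star, which moves cholesterol into mitochondria, overlapped between the genotypes (342.7 to 427.7 in KO and 338.5 to 457.6 in WT spermatocytes, -0.06 ± 0.13, adjusted p = 0.806). Cyp17a1 was at 0.38 ± 0.12 and did not pass (adjusted p = 0.0881), but did with the pair block (adjusted p = 0.0251). Of 15 genes of cholesterol synthesis 0 passed, with 3 higher under the block. In the fraction enriched for Leydig cells the KO to WT difference was 1.64 for Hsd3b1, 1.29 for Cyp11a1 and 1.26 for Star, from 2 arrays per genotype. Whether Leydig cells in the spermatocyte fraction contribute to the rises was not tested. Of 6 tested Sertoli cell markers 33.3% were higher and 16.7% lower, against 5.03% and 8.49% of all genes. Sertoli cell markers gave 2 higher, Clu (0.41) and Tjp1 (0.37), and 1 lower, Cst9 (-0.49), of 6 tested, the rises passing in none of the fits that left out a pair, with summed signals of 5251 to 5379 on KO arrays and 4478 to 4765 on WT arrays, while Sox9 averaged 18.5 in KO and 22.2 in WT cells. Of 2 tested genes on the list for peritubular, endothelial and blood cells Actg2, a smooth muscle actin, fell (-0.88 ± 0.10, adjusted p = 0.00556), and the list summed to 2140 to 2230 on KO arrays and 2792 to 2911 on WT arrays. Actg2 averaged 2057 in WT spermatocytes and 11810 in WT round spermatids. Without it the list summed to 959 to 1176 on KO arrays and 727 to 856 on WT arrays.

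The same genes were then read in other samples, none of which the spermatocyte calls had used. Round spermatid calls came from a fit of both cell types together, whose error also drew on the spermatocyte arrays. Those counts are therefore not independent of the spermatocyte data. Of the 763 genes lower in KO spermatocytes that could also be tested in round spermatids, 600 (78.6%) were lower there, against 17.4% of all 8765 genes tested in both. Of 426 that were higher, 320 (75.1%) were higher in round spermatids, against 37.3%, where the median change of all genes was 0.17. Total polysome RNA of the testis was measured on 3 arrays per genotype, of which 3 carry a description that goes against their title, and its values are given as differences of means with no test. There, 688 of the 772 lower genes had a lower mean in KO (89.1%, median -0.89), against 41.5% of genes tested, and 73 of the 458 higher genes (15.9%, median 0.34). In the fraction enriched for Leydig cells, 740 of the 772 lower genes had a lower mean in KO (95.9%, median -0.60), against 53.4% of genes tested. That fraction also held germ cell messages, since Prm1 averaged 20600 and Sycp3 6586 in it in WT.

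Several of the largest rises in spermatocytes were not seen in polysome RNA. Of the 19 genes that rose at least 2-fold, 5 had a lower mean in KO polysome RNA, where the difference was -0.26 for Fcgr3, -0.68 for Ptchd3 and -0.49 for Vav2. Of the 79 genes that fell at least 2-fold, 75 were also lower there, with a median of -2.03. Tssk6 was -3.49 in polysome RNA, Ubqlnl -3.08 and 1700008P02Rik -4.61. For Vnn1 the difference was 0.26 in polysome RNA and -0.38 in the Leydig fraction, against -2.56 in spermatocytes. These differences between RNA sources were not tested.

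The KO effect in spermatocytes was set against that in round spermatids by the interaction of genotype and cell type, which shares no array between the 2 effects. It passed for 1737 of 9097 genes, with the difference above 0 for 5.69% of genes and below 0 for 13.4%, and for 266 of the 1189 genes called in spermatocytes and tested in both cell types. Cyp2c55 rose by 3.19 in spermatocytes and by 1.76 in round spermatids (difference 1.44 ± 0.20, adjusted p = 0.00694), where KO arrays read 370.9, 348.4 and 338.8 and WT arrays 72.86, 80.8 and 109.9. The WT signals of Cyp2c55 lay below the signal filter in both cell types, so the size of this difference has no firm base. Fcgr3 rose by 2.71 in round spermatids, 0.47 more than in spermatocytes (adjusted p = 0.031). Ptchd3 rose there by 2.66 (difference -0.46, adjusted p = 0.0443), a difference that passed in 14 of 22 alternative fits. For Vav2 the 2 effects were 1.87 and 1.87 (difference 0.00 ± 0.15, adjusted p = 0.997), and for Ddx25 they were -2.26 and -1.98 (difference -0.28 ± 0.16, adjusted p = 0.244).

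For some meiotic genes the KO effect differed between the cell types. Sycp1 was at -0.25 in spermatocytes, where it did not pass, and 0.83 in round spermatids (difference -1.08, adjusted p = 0.00571), with round spermatid signals of 3181, 3538 and 3352 in KO and 2038, 1978 and 1763 in WT. Mybl1 was at -0.33 in spermatocytes and 0.87 in round spermatids (difference -1.20, adjusted p = 0.00571). The same held for Sycp3 (0.11 and 1.01, adjusted p of the difference 0.029) and Piwil1 (0.24 and 0.83, adjusted p of the difference 0.0167). In the pachytene list 6 of 15 genes had a called difference, and in the list of meiotic division genes 11 of 24, against 1737 of 9097 genes in all. In synapsis and meiotic cohesin it was 3 of 18 and in recombination 5 of 18, and Syce2 differed the other way (difference 0.65, adjusted p = 0.0282). In the elongating spermatid list it was 4 of 25, and in the round spermatid list 0 of 16.

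A few genes were called in opposite directions, and were picked out after their values had been seen. Among 763 genes lower in KO spermatocytes and tested in both, 14 (1.83%) were called higher in KO round spermatids, against 37.3% of all genes. Among 426 that were higher, 11 (2.58%) were called lower there, against 17.4% of all genes. Opposite calls were thus rarer than such calls over all genes. Rab6b, a small GTPase of Golgi transport, had 176.6, 110.2, 132 and 143.6 in KO, against 306.3, 245.9, 616.4 and 273.9 in WT spermatocytes (-1.19 ± 0.18, adjusted p = 0.012). With the pair as a random block its fall in spermatocytes did not pass. In round spermatids Rab6b was 1218, 809.7 and 1175 in KO, against 501.1, 347.2 and 245.1 in WT (1.70, adjusted p of the difference 0.00571). Mmachc, of vitamin B12 metabolism, was 1898, 1884, 2054 and 1818 in KO, against 1171, 1082, 1200 and 1104 in WT spermatocytes (0.74 ± 0.08, adjusted p = 0.00414), and 0.50 lower in KO round spermatids. Aldh1l1, a folate enzyme, was at 0.85 ± 0.12 in spermatocytes (adjusted p = 0.00948) and at -0.43 in round spermatids. All round spermatid arrays of Aldh1l1, at 100.8 to 149.3, lay below the signal filter. Its WT spermatocyte arrays, at 129.5 to 175.9, lay near that filter, so the sizes of both changes have no firm base. On the mean over its probe sets the rise in spermatocytes did not pass.

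**Figure D4:**
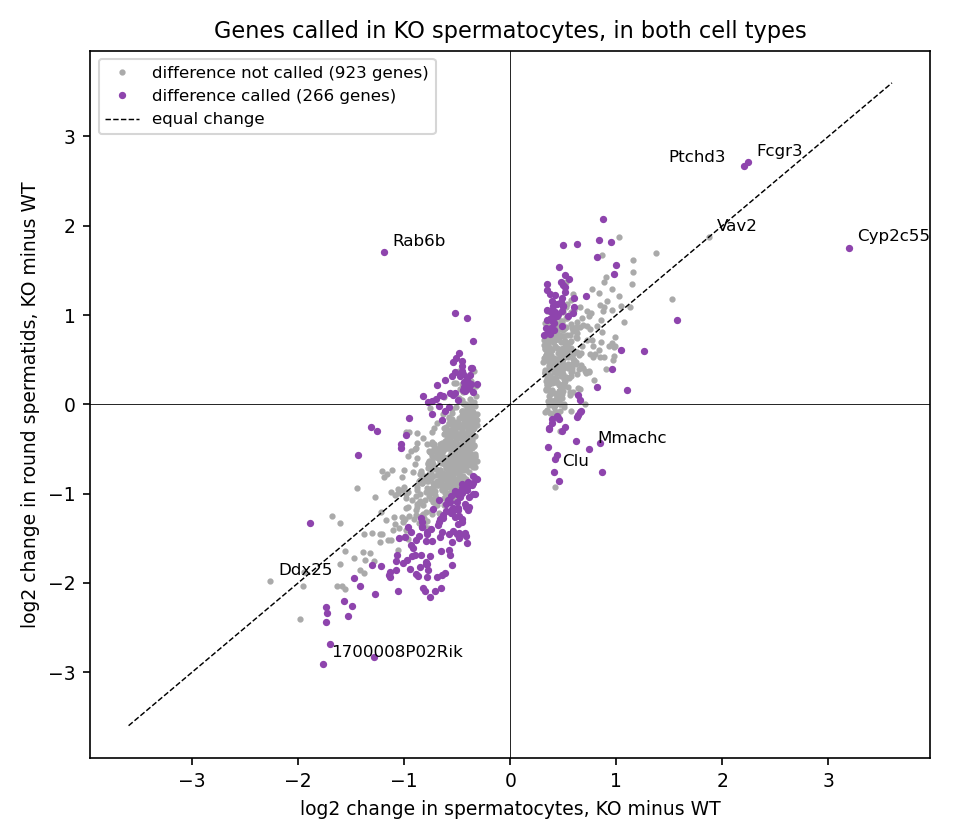
Log2 change of KO minus WT in spermatocytes (x axis) and in round spermatids (y axis) for the 1189 genes called in spermatocytes and tested in both, 1 point per gene, with the line of equal change dashed. The 266 genes whose difference between the cell types passed the test are purple, with Rab6b at -1.19 and 1.70 standing alone at upper left.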

How the data were processed

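The values used were the authors' deposited signal intensity per probe set, 1 column per array, made with the Affymetrix software GCOS per the submitters' processing notes; no version is given in the sources used here. Columns were matched to samples by title. Of 45101 probe sets, 34945 had 1 gene symbol, 932 several and 9160 none, and 64 were controls; the brightest probe set stood for each of 18193 genes. Each array was scaled to a trimmed mean of 500 (0.02 cut at each end) and log2(signal + 16) was taken, so fold changes of dim genes are understated. Genes above the median mean level (signal 149.7) were tested, which left 9097. Near-duplicate arrays were averaged, and KO and WT pair means were compared with limma 3.58.1 in R 4.3.3, with moderated tests on log2 values and Benjamini-Hochberg adjustment over all genes tested at 0.05. An SE is limma's standard error of the log2 change. The difference between cell types was an interaction term with the 3 KO and 3 WT round spermatid arrays.

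Same-numbered KO and WT arrays deviated together from their group means (r of 0.322, 0.28, 0.26 and 0.386 over genes). This possible pairing was read from the data, not from the labels. The main fit had no pairing term, so its counts, SE and adjusted p ignore it. Values with the pair as a block are printed where they change the call of a named gene and beside most list counts that they change. Genes named were Ddx25, the 10 largest rises and 10 largest falls, in each list the members of smallest adjusted p (at most 4), the neighbours of Ddx25 and disagreeing probe sets. Further genes (Rab6b, Mmachc, Aldh1l1, Tnp1, Tnp2, Prm1, Prm2, Oaz3, Smcp, Sycp1, Sycp3, Piwil1, Mybl1, Star, Cyp17a1, Tmem225, Hyou1, Akap3, Hils1 and Tsga8) were chosen after their values were seen. The lists and the comparison were chosen with earlier results of these data known. Promoters came from RefSeq on GRCm38.p6. The number of arrays limits the precision. The procedure was tested on simulated data, and figures were drawn with matplotlib 3.10.9.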

Additional observations from a re-analysis of the deposited data

Results flagged for a closer look

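The KO effect differed between spermatocytes and round spermatids, by limma's interaction test, for 27 named genes, given here as the log2 change in spermatocytes, then in round spermatids, then the difference of the first minus the second. Over all genes the test passed for 5.69% with a difference above 0 and for 13.4% with one below 0. Among the largest rises these were Cyp2c55 (3.19 and 1.76, difference 1.44, adjusted p = 0.00694), Fcgr3 (2.25 and 2.71, difference -0.47, adjusted p = 0.031), Ptchd3 (2.20 and 2.66, difference -0.46, adjusted p = 0.0443), Speer4cos (1.57 and 0.95, difference 0.63, adjusted p = 0.0123) and 4933404O12Rik (1.26 and 0.59, difference 0.67, adjusted p = 0.0171). Among the largest falls they were Gm19589 (-1.88 and -1.33, difference -0.55, adjusted p = 0.0485), 1700008P02Rik (-1.77 and -2.90, difference 1.14, adjusted p = 0.00571), 1700012A03Rik (-1.73 and -2.27, difference 0.54, adjusted p = 0.0271), Klk1b8 (-1.73 and -2.44, difference 0.70, adjusted p = 0.0242) and Ubqlnl (-1.72 and -2.34, difference 0.62, adjusted p = 0.0389). Among spermatid genes and their chaperones they were Hspa1l (-0.94 and -1.58, difference 0.64, adjusted p = 0.0142), Fscn3 (-1.56 and -2.20, difference 0.64, adjusted p = 0.0151), Rnf133 (-0.79 and -1.43, difference 0.64, adjusted p = 0.0171) and Prm2 (-0.98 and -0.34, difference -0.64, adjusted p = 0.0443). Among meiotic genes they were Syce2 (-0.36 and -1.01, difference 0.65, adjusted p = 0.0282), Sycp1 (-0.25 and 0.83, difference -1.08, adjusted p = 0.00571), Sycp3 (0.11 and 1.01, difference -0.90, adjusted p = 0.029), Piwil1 (0.24 and 0.83, difference -0.59, adjusted p = 0.0167) and Mybl1 (-0.33 and 0.87, difference -1.20, adjusted p = 0.00571). Among somatic cell markers they were Cst9 (-0.49 and -1.25, difference 0.76, adjusted p = 0.0122), Clu (0.41 and -0.76, difference 1.17, adjusted p = 0.00758) and Star (-0.06 and -0.92, difference 0.86, adjusted p = 0.0335). Among cell death genes they were Birc2 (0.41 and 0.92, difference -0.52, adjusted p = 0.0379) and Nfkbib (-0.32 and -0.84, difference 0.52, adjusted p = 0.0185). Genes picked for opposite directions were Rab6b (-1.19 and 1.70, difference -2.89, adjusted p = 0.00571), Mmachc (0.74 and -0.50, difference 1.24, adjusted p = 0.00571) and Aldh1l1 (0.85 and -0.43, difference 1.28, adjusted p = 0.00571). These calls were not equally firm under other processing. The difference passed in 8 of 21 alternatives for Gm19589, 14 of 22 for Ptchd3, 15 of 22 for Prm2 and 15 of 21 for Star. It passed in 21 of 22 for Sycp1 and Clu. Some of the differences also rest on dim signals. The WT signals of Cyp2c55 lay below the signal filter in both cell types, as did the round spermatid signals of Aldh1l1 in both genotypes. The sizes of the differences for Cyp2c55 and Aldh1l1 therefore have no firm base.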

How the results depend on the processing

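Of 97 named genes past the threshold, 57 stayed past it under every alternative that covered them, leaving aside the fit with no filter. So did 18 of the 20 largest changes, the exceptions being Clec4g and Edem1 under the mean of probe sets. Not every alternative covered each gene: Vnn1 was read in 18 of 27, Cyp2c55 in 20 and Neo1 in 24. Against 458 genes higher and 772 lower, arrays as separate replicates gave 1781 and 1623, the same with a replicate block 2502 and 2003, pair means with a replicate block 832 and 1031, and the pair as a random block 881 and 1065. The lower share of calls was then 47.7%, 44.5%, 55.3% and 54.7%, against 62.8%. With no filter 0 and 0 of 18193 genes passed in limma, with 2853 at an unadjusted p below 0.05. An upper quartile filter gave 230 and 465 of 4549 genes, where fewer genes were tested, and the mean of probe sets 249 and 504, for which the cause was not tested. Leaving out 1 array or 1 pair gave 150 to 452 higher and 389 to 795 lower genes, lowest without KO arrays 1 and 2, where the lone pair is assumed to vary like the other group. Genes whose effect differed between cell types numbered 1737. That count was 4186 with separate arrays, 5129 with these and a replicate block, and 1 with no filter. It was 713 to 1974 when 1 array was left out, and leaving out a spermatocyte pair was not tried for it. Directions reversed for Nfkbib with the mean of probe sets (0.065), Sycp3 without WT arrays 3 and 4 (-0.044, against 0.265 without WT arrays 1 and 2), and Star without KO arrays 1 and 2 (0.049) or without WT arrays 3 and 4 (0.086, against -0.205 without WT arrays 1 and 2), and 0 of these values passed. Signal near background limits dim genes.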
